A study of Mus musculus with 24 samples.

Results

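Transcripts of 6 aquaporin genes (Aqp1, Aqp2, Aqp3, Aqp4, Aqp7 and Aqp11) and of the vasopressin V2 receptor gene Avpr2 were followed through ureteric obstruction of the mouse kidney and its reversal. The members were chosen by name from the aquaporins and kidney-type vasopressin receptor of the water-handling tubule. Each has a row in the deposited expression table, and they are 7 of its 14785 genes. Aqp6 has a row too but is not a member, and is given with the pathway lists. All 24 animals were male C57/BL6 mice with a labelled age of 8 weeks, and each group held 4. Sham animals had sham surgery only. UUO2 and UUO7 animals had 1 ureter ligated (unilateral ureteric obstruction, UUO) and were culled after 2 and 7 days. R1W, R2W and R4W animals had 7 days of obstruction, then surgery that reimplanted the ureter, and were culled 1, 2 or 4 weeks later. The series title calls the tissue cortical kidney while the sample labels say kidney. The 4 animals sequenced per group were selected from 10, by a rule that is not given in the sources used here, and nothing in the labels matches a sham kidney to the later recovery times. One R4W animal (replicate 2) has a treatment label of 2 weeks against a title of 4 weeks and was grouped by its title.

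Aquaporins are membrane channels for water. In the kidney, AQP1 carries water through the proximal tubule and the thin descending limb, whereas the principal cells of the collecting duct take up water under the control of vasopressin. There the hormone binds the V2 receptor on the basolateral side, cAMP rises, and vesicles bearing AQP2 fuse with the apical membrane; AQP3 and AQP4 let the water out basolaterally. AQP7, which also passes glycerol and is the main aquaglyceroporin of fat cells, sits in the brush border of the straight proximal tubule, and AQP11 is an intracellular channel of the proximal tubule.

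Values are FPKM, fragments scaled to transcript length and library size, inferred from the deposited numbers and their low steps. The steps of 20 libraries, all those outside UUO2, gave an implied depth of 24900000 to 35320000 fragments. Only 1 of the 4 UUO2 libraries gave steps at all (replicate 3), with an implied depth of 73360000. UUO2 libraries also held less of 3 podocyte markers (summed FPKM 7.93 to 25.8, against 33.8 to 37.2 in sham) and 4 of 5 red blood cell markers were called lower there, against 17.0% of all genes, and the design text counts 20 libraries over 3 lanes, not 24, so a sequencing or preparation difference and the effect of 2 days of obstruction cannot be told apart. A library's middle gene moved with the group: the median log2 difference over all genes was 0.42 in UUO7 against sham and 0.008 once each library was rescaled by its median ratio to the gene-wise mean. Differences are therefore given as deposited, with the rescaled value added for the calls that rescaling changed or moved most. Sham replicate 2 stood apart from the other sham kidneys, with 559 FPKM of Akr1b3, the aldose reductase that makes sorbitol in the hypertonic medulla, against 50.7 to 64.0. It also had the most Slc14a2 (the urea transporter of the inner medullary collecting duct), Upk3a (a urothelial uroplakin) and Adipoq (adiponectin, of fat cells) of the 4. UUO2 replicate 2 lay inside the range of the sham kidneys for 6 of the 7 members, all but Aqp11, against 2 or 3 members in the other UUO2 kidneys. It held 218 FPKM of the injury gene Havcr1, against 472 to 645 in those, while its Lcn2, another injury gene, was 418 against 408 to 553.

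After 7 days of obstruction all 7 transcripts were called lower than in sham, and for all 7 the UUO7 and sham libraries did not overlap. Over all genes 17.8% were called lower in that comparison and 16.8% were lower without overlap (36.5% called lower after rescaling, where the 7 calls held). The median log2 difference of the members was -1.42, against 0.42 over all genes. At 2 days, 3 of 7 were called lower (Aqp1, Aqp3 and Aqp11), with 17.0% of all genes called lower. Calls are at a Benjamini-Hochberg adjusted p under 0.05 from limma, fitted on log2(FPKM + 1) over all 14785 genes and 24 libraries, with 4 animals a group. As whole tissue was sequenced, fewer cells of a type and less RNA per cell cannot be told apart.

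In recovery, members passed the test at different times. At 1 week after reversal 3 of 7 (Aqp1, Aqp7 and Aqp11) were still called lower than sham, against 14.7% of all genes; after rescaling Aqp3 and Avpr2 joined them, making 5, against 34.6%. The same 3 were called lower at 2 weeks, against 12.9% of all genes, and rescaling added Aqp3 (32.5% of all genes). At 4 weeks 2 remained called lower than sham, Aqp7 and Aqp11, against 11.6% of all genes, and none was called higher; after rescaling the count was again 2 of 7, near the 31.1% of all genes called lower there. Measured from UUO7 instead, 3 of 7 (Aqp2, Aqp3 and Aqp11) were called higher at 1 week, against 6.47% of all genes, and 6 of 7, all but Aqp7, at 4 weeks, against 17.6%. From 1 to 4 weeks, 2 members rose, Aqp1 and Aqp3, against 5.06% of all genes, but neither was called with the R4W and R1W groups alone in the fit (limma adjusted p = 0.0648 and 0.0539), and the count ran from 0 to 3 with 1 library left out. The comparisons with sham share the same 4 sham libraries, and those with UUO7 the same 4 obstructed ones.

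**Figure D1:**
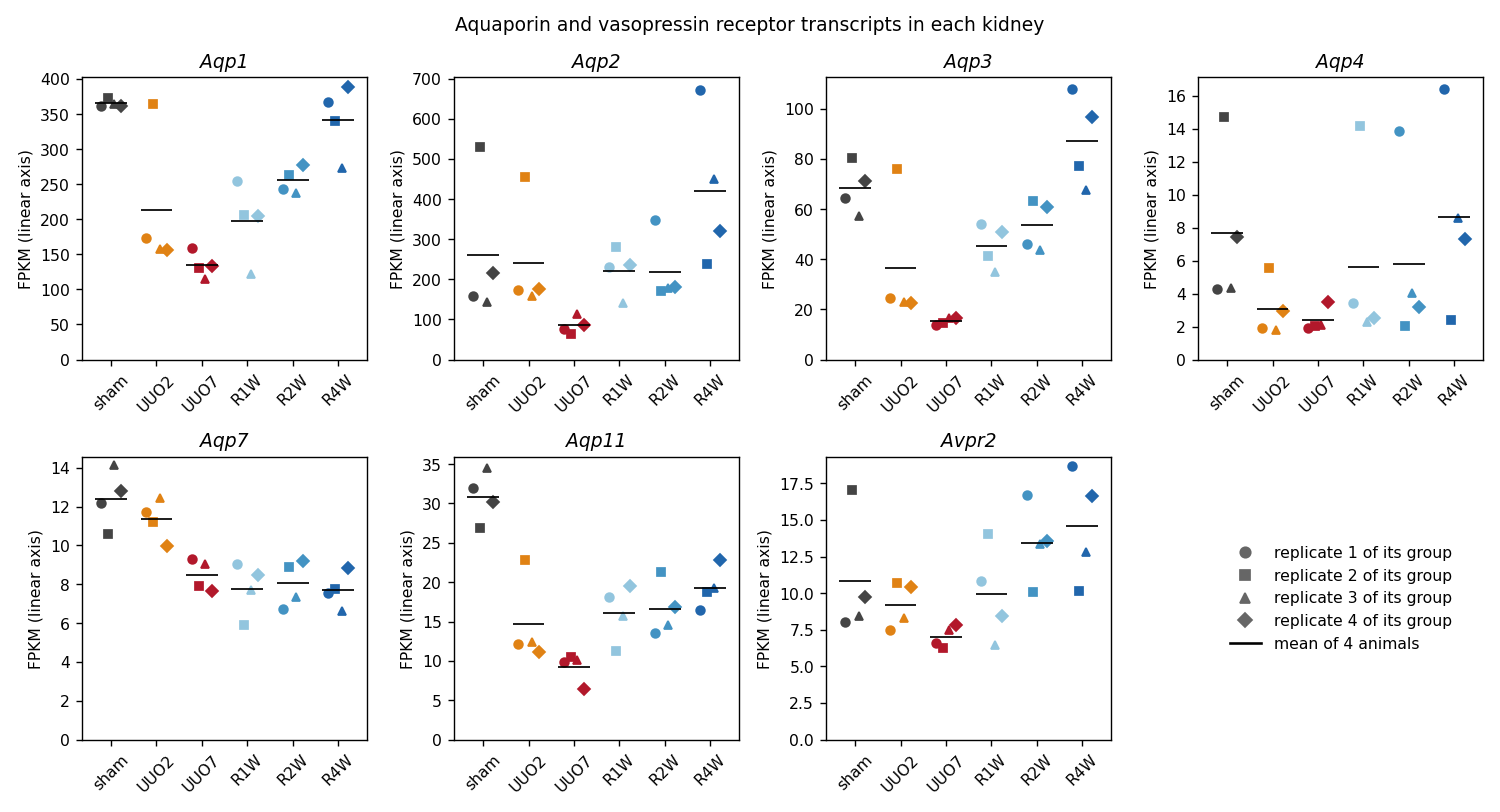
FPKM of each transcript in each of the 24 libraries (linear axes from 0), by group; symbols mark the replicate number within a group and bars the mean of 4 animals. In UUO7 all 4 points of every transcript lie below the 4 sham points; UUO2 replicate 2 lies apart from its group for Aqp1, Aqp2, Aqp3 and Aqp11, and Aqp7 stays low in every recovery group.

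The promoters of 3 collecting duct members whose transcripts fell together at 7 days are shown for the letters upstream of their start sites, from RefSeq on GRCm38.p6, 250 bases each, 5′ to 3′ on the strand of the gene, with capitals at motif matches. RefSeq's table held 6 of the 7 members.
Aqp2, chr15:99578806-99579055, + strand: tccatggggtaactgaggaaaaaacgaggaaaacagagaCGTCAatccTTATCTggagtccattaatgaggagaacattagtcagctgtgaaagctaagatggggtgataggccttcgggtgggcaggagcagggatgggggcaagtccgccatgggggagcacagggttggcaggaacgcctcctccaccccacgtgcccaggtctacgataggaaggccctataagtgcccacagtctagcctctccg
Aqp3, chr4:41098184-41098433, - strand: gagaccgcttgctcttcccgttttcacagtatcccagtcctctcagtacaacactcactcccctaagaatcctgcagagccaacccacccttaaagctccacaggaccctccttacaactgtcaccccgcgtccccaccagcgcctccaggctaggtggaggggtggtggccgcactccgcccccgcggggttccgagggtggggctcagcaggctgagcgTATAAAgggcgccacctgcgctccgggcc
Avpr2, chrX:73891852-73892101, + strand: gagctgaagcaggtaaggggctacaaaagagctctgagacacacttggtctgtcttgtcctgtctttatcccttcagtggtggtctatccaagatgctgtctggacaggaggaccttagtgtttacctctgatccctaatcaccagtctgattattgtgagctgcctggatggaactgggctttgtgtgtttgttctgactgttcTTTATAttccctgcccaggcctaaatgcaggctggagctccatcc
Searched on both strands, the Aqp2 window held the letters TGACG, part of the cAMP response element (CRE), on the opposite strand with its first base at -211, as do 17.8% of 32851 promoter windows of that length. It also held 1 GATA motif, AGATAA, on the opposite strand at -202 (9.99% of windows, Aqp7's among them), and the 2 matches do not overlap. Aqp3 held the TATA motif TATAAA at -29 and Avpr2 the same letters on the opposite strand at -45 (12.4% of windows). The full CRE TGACGTCA (1.55% of windows), the ETS motif CCGGAAG (6.91%) and the AP-1 motif TGANTCA (6.75%) were found in none of the 6 members. These matches describe letters in a window and are not binding sites measured here.

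The receptor. Avpr2 (chrX:73892102-73895502 in mm10, + strand) encodes the V2 receptor, whose loss causes nephrogenic diabetes insipidus. The sham kidneys, in replicate order, held 8.03, 17.1, 8.45 and 9.76 FPKM and the UUO7 kidneys 6.58, 6.25, 7.48 and 7.79; the highest UUO7 kidney lay just under the lowest sham kidney. The means were 10.8 ± 4.23 and 7.03 ± 0.728 FPKM (SD, n = 4), a log2 difference of -0.51 (SE 0.22, limma adjusted p = 0.0453). That call rested on sham replicate 2: without it the difference was -0.28 with adjusted p = 0.226, and it was also lost, with adjusted p of 0.0567 to 0.098, without UUO7 replicate 1, 2 or 3 or sham replicate 4. After rescaling it was -0.94 (adjusted p = 0.000376). UUO2 kidneys held 7.49, 10.7, 8.27 and 10.5 FPKM, overlapping with sham (-0.16, adjusted p = 0.573).

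In recovery the R1W kidneys held 10.9, 14.0, 6.46 and 8.42 FPKM of Avpr2, R2W 16.7, 10.1, 13.4 and 13.5 and R4W 18.7, 10.2, 12.8 and 16.7. The 4 R4W kidneys all exceeded the 4 UUO7 kidneys (log2 difference 0.93, SE 0.22, limma adjusted p = 0.00205), and the R4W mean of 14.6 ± 3.80 FPKM was not separated from sham (0.42, adjusted p = 0.1; 0.08 after rescaling). Without sham replicate 2 the same comparison passed (0.65, adjusted p = 0.0104), as did R2W against sham (0.55, adjusted p = 0.0248). Without R4W replicate 2 the R4W difference was 0.57 (adjusted p = 0.0385). These passes are on values as deposited, where 54.8% of all genes were called higher in R4W than in sham with all libraries. In R2W the median difference from sham over all genes was 0.32. After rescaling, with all libraries, the R2W difference of Avpr2 was -0.03 (limma adjusted p = 0.903). Avpr2 has a further limit. Of its 2886 exon bases, 2347 (81.3%) are also exon bases of Arhgap4, a gene on the opposite strand, and whether the reads were counted by strand is not stated. Arhgap4 was at 3.07 ± 0.901 FPKM in sham, 9.40 ± 1.14 in UUO7, 12.8 ± 4.82 in R2W and 9.97 ± 1.90 in R4W (SD, n = 4). It was thus above its sham level both where Avpr2 was below sham (UUO7) and where the Avpr2 mean was above it (R2W and R4W), and its part in the Avpr2 values was not tested.

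The apical channel. Aqp2 (chr15:99579056-99584545, + strand) encodes the water channel that vasopressin moves to the apical membrane. Its sham values, 159, 529, 143 and 216 FPKM, were spread 3.7 times from lowest to highest, with sham replicate 2 far above the other 3. At 2 days the kidneys held 173, 455, 158 and 175 FPKM, a range that lies inside that of sham (log2 difference -0.07, SE 0.40, limma adjusted p = 0.91). At 7 days they held 77.3, 64.0, 113 and 87.0 FPKM, all below every sham and every UUO2 kidney. Aqp2 averaged 262 ± 181 FPKM in sham, 240 ± 143 at 2 days and 85.4 ± 20.8 at 7 days (SD, n = 4), which is 3.07-fold lower in UUO7 than in sham (log2 difference -1.42, SE 0.40, adjusted p = 0.00275) and 2.81-fold lower than in UUO2 (-1.36, adjusted p = 0.00513). Without sham replicate 2 the fall from sham was 2.02-fold (-1.02, adjusted p = 0.0166). The fall at 7 days was thus present against sham and against 2 days alike, and with an SE of 0.40 a small change at 2 days was not detectable.

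One week after reversal Aqp2 stood at 231, 279.8, 142 and 235 FPKM, above all UUO7 kidneys (log2 difference 1.36, SE 0.40, limma adjusted p = 0.0267). With any of R1W replicates 1, 2 and 4 or UUO7 replicates 1, 2 and 4 left out, that difference was 1.23 to 1.38 with adjusted p of 0.0546 to 0.0673. R2W kidneys held 348, 169.8, 178 and 181 FPKM and R4W kidneys 673, 237, 449 and 322, the last including the highest value of the series. The R4W mean of 420.3 ± 189.7 FPKM was 4.92-fold that of UUO7 (2.21, SE 0.40, adjusted p = 0.000171). Against sham it missed the threshold (0.78, adjusted p = 0.0874; 0.41 after rescaling), but without sham replicate 2 it passed as higher (1.19, adjusted p = 0.00775), and likewise without R4W replicate 2 (1.02, adjusted p = 0.0398). Both passes are on values as deposited, where 54.8% of all genes were called higher in R4W than in sham with all libraries. The group order of Aqp2, from R4W through sham, UUO2, R1W and R2W to UUO7, held only 1 pair of neighbours that differed, R2W and UUO7 (adjusted p = 0.0165).

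The basolateral channels. Aqp3 (chr4:41092722-41098183, - strand) encodes the constitutive basolateral channel for water and glycerol, and had the largest fall of the 7. Sham kidneys held 64.5, 80.5, 57.2 and 71.4 FPKM and UUO7 kidneys 13.9, 14.7, 16.5 and 16.7. The 2 groups were far apart, and no UUO7 kidney exceeded 16.7 FPKM. Mean Aqp3 was 68.4 ± 9.93 FPKM in sham and 15.5 ± 1.35 in UUO7 (SD, n = 4), 4.43-fold lower (log2 difference -2.07, SE 0.27, limma adjusted p = 5.55e-07). At 2 days Aqp3 stood at 24.4, 76.0, 23.1 and 22.4 FPKM: 3 kidneys lay far below sham and replicate 2 lay within the sham range, and the mean difference was -1.09 (SE 0.27, adjusted p = 0.00215), or -1.51 without that kidney.

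Aqp3 in R1W was 54.1, 41.2, 34.9 and 50.7 FPKM, all above UUO7 (1.47, SE 0.27, limma adjusted p = 0.00206) and all below the lowest sham kidney, 57.2 FPKM, with an adjusted p against sham of 0.0519. That difference from sham was called without R1W replicate 1 (adjusted p = 0.0414) or sham replicate 3 (adjusted p = 0.0468) and after rescaling (-1.04, adjusted p = 0.00281). With the UUO2 group out of the fit it was called too (limma adjusted p = 0.0031), as with only R1W and sham in it (0.00769). The R2W kidneys held 46.3, 63.4, 43.9 and 60.9 FPKM and overlapped with sham (-0.35, adjusted p = 0.25; -0.74 with adjusted p = 0.0274 after rescaling). In R4W Aqp3 was 108, 77.1, 67.6 and 96.9 FPKM, a mean of 87.4 ± 18.3 and 5.65-fold that of UUO7 (2.41, adjusted p = 2.47e-06); against sham the difference was 0.34 (adjusted p = 0.276) as deposited and -0.04 after rescaling. R4W also exceeded R1W without overlap (0.93, SE 0.27, adjusted p = 0.0228), a call lost without R4W replicate 1 or 4 or R1W replicate 3 (adjusted p of 0.0615 to 0.0973).

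Aqp4 (chr18:15389394-15403684, - strand), the basolateral channel that is more abundant toward the inner medulla and also the main aquaporin of brain astrocytes, was the least abundant member, with a mean of 5.53 FPKM over the 24 libraries. Sham kidneys held 4.30, 14.7, 4.32 and 7.40 FPKM and UUO7 kidneys 1.91, 2.02, 2.08 and 3.48, with no overlap; UUO2 kidneys held 1.90, 5.52, 1.81 and 2.94. The UUO7 difference from sham was -1.24 on the log2 scale (SE 0.53, limma adjusted p = 0.0405). It was lost without sham replicate 2 (-0.90, adjusted p = 0.146), and without UUO7 replicate 1, 2 or 3 or sham replicate 4 (adjusted p of 0.0716 to 0.078). Recovery kidneys were widely spread: R1W values were 3.44, 14.2, 2.29 and 2.53 FPKM, R2W values 13.9, 2.03, 4.04 and 3.20 and R4W values 16.4, 2.40, 8.59 and 7.29, so that 1 kidney in R1W and 1 in R2W was near the highest sham kidney while the others of these groups held 2.03 to 4.04. The R4W difference from UUO7 was 1.32 (adjusted p = 0.0466), with groups that overlapped, and it was lost without R4W replicate 1, 3 or 4 or UUO7 replicate 1, 2 or 3 (0.96 to 1.32, adjusted p of 0.0799 to 0.164).

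The proximal tubule channels. Aqp1 (chr6:55336432-55348555, + strand) was the most abundant member in sham, ranked 275 of 14785 genes by mean FPKM, and its 4 sham values were spread only 1.03 times from lowest to highest, at 362, 373, 364 and 361 FPKM. At 7 days the kidneys held 159, 130.0, 115 and 133 FPKM and all lay far below the sham kidneys. The means were 365 ± 5.72 and 134 ± 18.4 FPKM (SD, n = 4), a 2.72-fold fall (log2 difference -1.45, SE 0.22, limma adjusted p = 3.9e-06). At 2 days Aqp1 was 173, 364, 158 and 157 FPKM, with replicate 2 inside the sham range and 3 kidneys far below (-0.88, SE 0.22, adjusted p = 0.00226).

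The mean of Aqp1 was higher at each later recovery time. R1W kidneys held 255, 206, 122 and 205 FPKM, overlapping with UUO7 (0.51, limma adjusted p = 0.117; 0.72 with adjusted p = 0.0224 without R1W replicate 3), and stayed below sham (-0.94, adjusted p = 0.000636). With the UUO2 group out of the fit, the R1W difference from UUO7 was called (0.51, limma adjusted p = 0.0391). R2W kidneys held 244, 263, 238 and 277 FPKM, all below sham (-0.52, adjusted p = 0.0402; -0.91 after rescaling); leaving out R2W replicate 1, 2 or 3 or any sham replicate gave -0.53 to -0.48 with adjusted p of 0.055 to 0.0849. R4W kidneys held 367, 340.2, 273 and 389 FPKM, on both sides of the sham values (-0.11, adjusted p = 0.68; -0.48 with adjusted p = 0.0752 after rescaling). R4W exceeded R1W without overlap (0.83, SE 0.22, adjusted p = 0.0145), a call lost without R1W replicate 3 (0.62, adjusted p = 0.0777). Aqp1 is also made by red blood cells and the endothelium of the descending vasa recta. The summed FPKM of 6 endothelial markers lay at 79.7 to 152 for sham, 241 to 259 for UUO7 and 204 to 266 for R4W, and that of 5 red blood cell markers was 312 to 667 in sham and 362 to 494 in UUO7; none of the 5 was called in UUO7, while 5 of the 6 endothelial markers were called higher, against 60.1% of all genes. Their part in the Aqp1 values was not tested.

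Aqp7 (chr4:41033074-41048139, - strand) was the only member not called higher in R4W than in UUO7. Its values were 12.2, 10.6, 14.1 and 12.8 FPKM in sham and 11.7, 11.2, 12.4 and 9.98 in UUO2, which overlapped (log2 difference -0.12, SE 0.12, limma adjusted p = 0.434). UUO7 kidneys held 9.29, 7.92, 9.02 and 7.63 FPKM, R1W 9.03, 5.88, 7.72 and 8.49, R2W 6.72, 8.88, 7.36 and 9.20 and R4W 7.55, 7.75, 6.60 and 8.82; in each of these groups the highest kidney lay below the lowest sham kidney. Sham averaged 12.4 ± 1.47 FPKM, UUO7 8.47 ± 0.813 and R4W kidneys 7.68 ± 0.911 (SD, n = 4). The difference from sham was -0.50 in UUO7 (SE 0.12, adjusted p = 0.00063) and -0.63 in R4W (SE 0.12, adjusted p = 0.000115), or -0.95 and -0.97 after rescaling, and R4W did not differ detectably from UUO7 (-0.13, adjusted p = 0.388) or from R1W (-0.01, adjusted p = 0.971). As Aqp7 is also a fat cell gene, adipocyte markers were summed: of 8 adipocyte markers 7 have a row, and their summed FPKM was 40.8 to 302 in sham, 137 to 193 in UUO7 kidneys, 76.1 to 89.9 in R2W, and 63.4 to 1719 for R4W. Adipoq was 12.5 FPKM in sham replicate 2, 79.7 in R4W replicate 1 and 25.6 in R4W replicate 3, at most 0.79 in every other library and listed at 0 in 14 of the 24. The R4W kidney with 79.7 FPKM of Adipoq held 7.55 FPKM of Aqp7, less than 2 of the other R4W kidneys, and the part of fat in the Aqp7 values was not tested.

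Aqp11 (chr7:97724006-97738289, - strand), whose loss in mice causes cystic kidneys, fell early and recovered in part. Sham kidneys held 31.9, 26.9, 34.5 and 30.2 FPKM. At 2 days the values were 12.2, 22.8, 12.4 and 11.1 FPKM, all below sham (log2 difference -1.08, SE 0.20, limma adjusted p = 0.000131), and at 7 days 9.83, 10.5, 10.1 and 6.40 (-1.66, SE 0.20, adjusted p = 1.55e-07). Mean Aqp11 was 30.9 ± 3.17 FPKM in sham and 9.19 ± 1.88 in UUO7 (SD, n = 4), 3.36-fold lower. The kidneys of R1W held 18.1, 11.2, 15.7 and 19.5 FPKM, R2W 13.6, 21.2, 14.6 and 16.9 and R4W 16.4, 18.7, 19.3 and 22.8, each group below every sham kidney. R1W exceeded UUO7 (0.75, adjusted p = 0.0161; 0.60 to 0.68 with adjusted p of 0.0505 to 0.064 without R1W replicate 1 or 4 or UUO7 replicate 4), and R4W was 2.10-fold that of UUO7 (1.01, adjusted p = 0.000359). R4W was still 1.60-fold lower than sham (-0.65, SE 0.20, adjusted p = 0.00641; -1.02 after rescaling), and its neighbour in the group order, R2W, did not differ from it beyond the spread (adjusted p = 0.738).

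**Figure D2:**
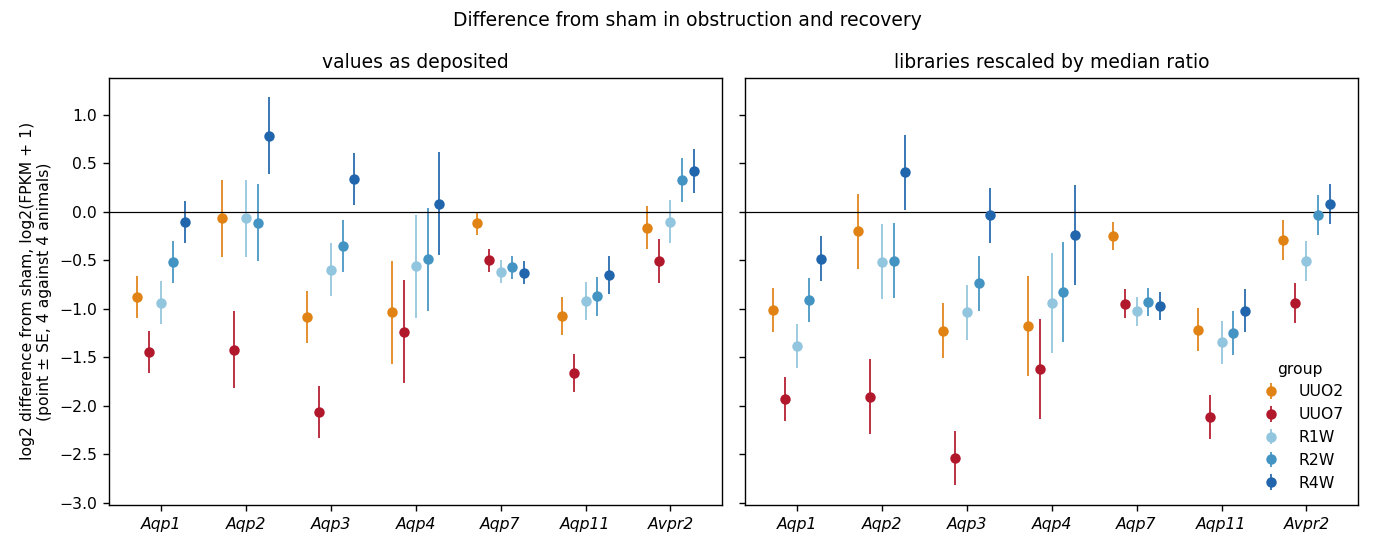
Log2 difference of each transcript from sham on the log2(FPKM + 1) scale in the 5 other groups (points, with SE bars from limma, 4 against 4 animals), as deposited at left and after rescaling each library by its median ratio at right. The 7 UUO7 points lie below 0 in both panels; in R4W, Aqp7 and Aqp11 lie at -0.63 and -0.65 as deposited, and rescaling moves R4W Aqp3 from 0.34 to -0.04.

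From 2 to 7 days of obstruction 5 of 7 transcripts fell, against 14.7% of all genes, and 6 of 7 after rescaling (31.9%), where Avpr2 joined them (-0.65, adjusted p = 0.00976). Aqp2 fell most, followed by Aqp3 (-0.98, SE 0.27, limma adjusted p = 0.00318), Aqp11 (-0.58), Aqp1 (-0.57) and Aqp7 (-0.38, adjusted p = 0.00734); the last 3 were -0.90, -0.92 and -0.70 after rescaling. UUO2 replicate 2 bears on this: without it the difference of Aqp3 was -0.56 (adjusted p = 0.00605), and Aqp1 (-0.28, adjusted p = 0.152) and Aqp11 (-0.36, adjusted p = 0.0752) were not called, nor was Aqp1 without UUO7 replicate 3 (adjusted p = 0.0729) or Aqp11 without UUO7 replicate 4 (adjusted p = 0.064). As deposited, Aqp2 and Aqp7 were called lower at 7 days than at 2 days but not at 2 days against sham; Avpr2 met the same description after rescaling (adjusted p = 0.255 at 2 days against sham).

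A transcript of 1 segment can fall in whole tissue when all transcripts of that segment fall, so each member was also set against marker genes of its segment within the same library. The principal cell list (Fxyd4, Hsd11b2, Scnn1b, Scnn1g, Elf5, Gata3 and Npnt) holds subunits of the sodium channel, the glucocorticoid-inactivating enzyme and transcription factors of that cell. In UUO7 against sham, 1 of its 7 genes was called higher (Gata3, log2 difference 0.80, limma adjusted p = 0.00799) and 0 lower, with a median of 0.28, where 60.1% of all genes were called higher and 17.8% lower; after rescaling 0 were higher and 2 lower (Hsd11b2, -0.54, and Scnn1g, -0.36). The 8 proximal tubule markers were all called lower, with a median of -2.07. The summed FPKM of the principal cell list was 212 to 370.1 in sham and 264 to 331 in UUO7, so the groups overlapped, whereas that of the proximal list was 5523 to 6694 and 1385 to 1809. Most of the overlap in the principal cell list came from sham replicate 2, at 370.1, as the other sham kidneys held 212 to 268.

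Set against principal cell markers (log2 of the member minus the mean log2 of the list), all 4 collecting duct members were lower in all 4 UUO7 kidneys than in any sham kidney. The difference in this relative level was -1.69 for Aqp2, -2.34 for Aqp3, -1.50 for Aqp4 and -0.77 for Avpr2, each with an exact two-sided permutation p of 0.0286, the smallest that 4 against 4 allows, and an adjusted p of 0.0444 over 28 such tests. These adjusted calls are narrow: with a pseudocount of 0.1, or with R4W replicate 2 placed in R2W, 0 of the 28 tests passed. Moving that library leaves 3 animals in R4W, too few for the R4W tests to reach the smallest p. At 2 days Aqp3 (-1.29), Aqp4 (-1.24) and Avpr2 (-0.37) were already lower relative to the markers with the same exact p, whereas Aqp2 was not (-0.27, exact p = 0.457). The relative level of Aqp2 rose by 1.01 and that of Aqp3 by 1.13 from UUO7 to R1W (exact p = 0.0286 each), and that of Avpr2 did not move detectably (0.06, exact p = 0.6). At 4 weeks Aqp2 was not separated from sham relative to the markers (-0.02, exact p = 0.914), Aqp3 was -0.47 (exact p = 0.0571), and Avpr2 was still lower (-0.38, exact p = 0.0286), in a group where 6 of the 7 markers were called higher than in sham, against 54.8% of all genes (1 of 7, against 28.9%, after rescaling). Markers of other cell types were higher there too: all 7 urothelial markers (summed FPKM 51.3 to 156, against 1.86 to 39.96 in sham) and all 3 podocyte markers (84.3 to 120.3, against 33.8 to 37.2) were called higher in R4W than in sham, as deposited and after rescaling. Their part in the relative level of Avpr2 was not tested. Of the relative values in sham, Avpr2 lay between -0.963 and -0.846 and Aqp2 between 2.97 and 4.03.

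The 3 proximal members went the other way. Relative to the proximal tubule markers, Aqp7 was higher by 1.73, Aqp1 by 0.78 and Aqp11 by 0.56 in UUO7 than in sham (exact permutation p = 0.0286 each), so these transcripts fell less than the list did. Aqp7 was already 1.04 higher at 2 days (exact p = 0.0286), while Aqp1 (0.28, exact p = 0.143) and Aqp11 (0.08, exact p = 0.6) were not separated from sham. From UUO7 to R1W the relative level of Aqp7 dropped by 0.94 (exact p = 0.0286). At 4 weeks Aqp1 (0.85), Aqp7 (0.32) and Aqp11 (0.30) were all higher than in sham relative to the list (exact p = 0.0286 each), where the 8 markers were all called lower than in sham, against 11.6% of all genes (31.1% after rescaling, where the 8 calls held). In all, 18 of the 28 tests reached the smallest p; at least 17 had to do so for any to pass the adjustment, so the 18 pass together or not at all.

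**Figure D3:**
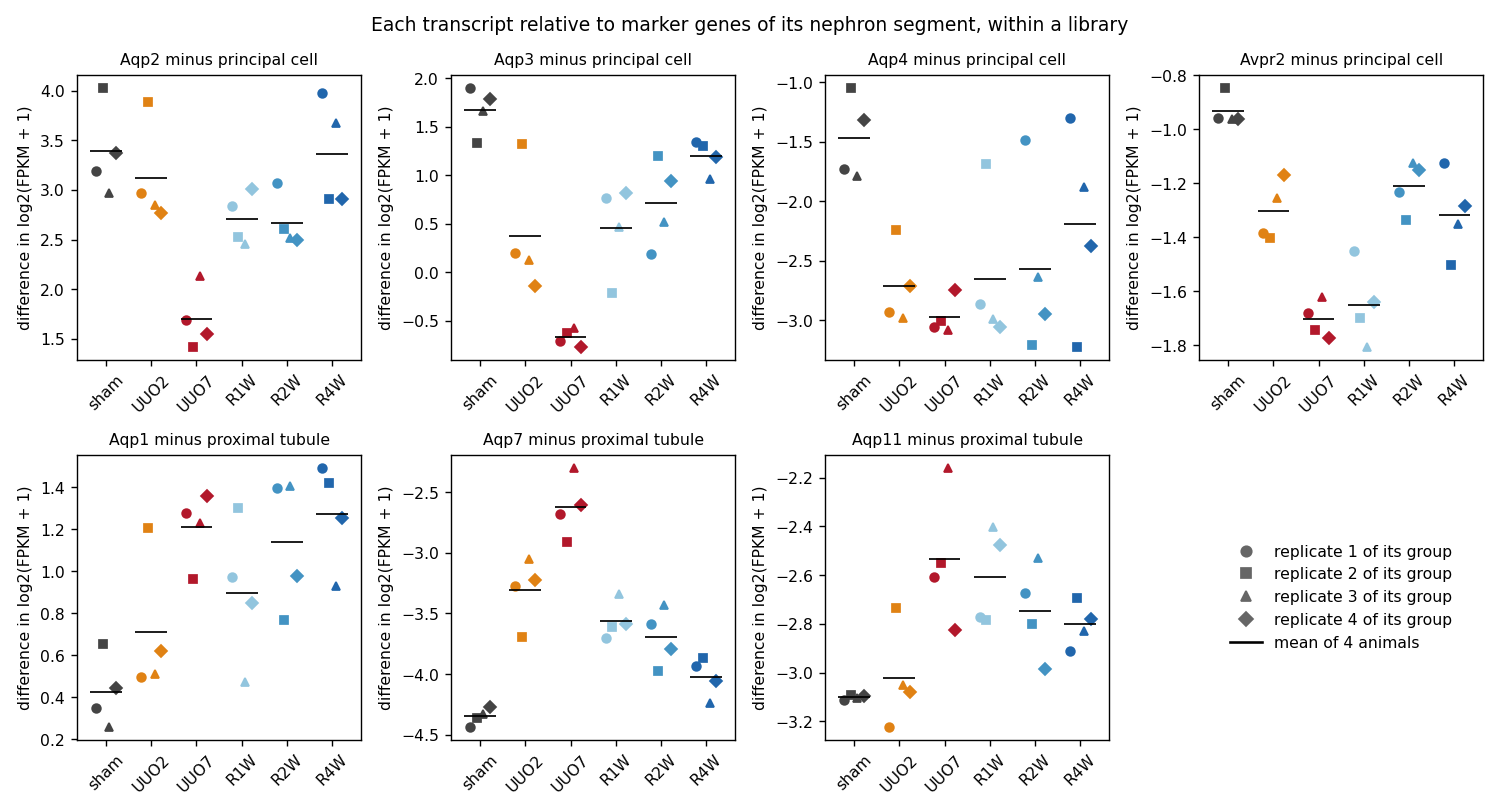
Each transcript relative to the mean of its segment's markers in the same library, as a difference in log2(FPKM + 1), by group; symbols mark the replicate number and bars the mean of 4 animals. The 4 collecting duct members (top) lie lower in UUO7 than in sham in every kidney, and the 3 proximal members (bottom) lie higher.

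Ratios of members that share a segment were also set side by side. The FPKM ratio of Aqp1 to Aqp7 lay between 25.8 and 35.3 for sham kidneys, 12.7 and 17.5 for UUO7 kidneys, and 41.4 and 48.6 for R4W kidneys, without overlap among the 3 groups. That of Aqp2 to Aqp3 was 2.47 to 6.57 in sham and 5.98 to 7.81 in UUO2. These ratios were chosen after their values were seen; the exact permutation p of Aqp1 over Aqp7 was 0.0286 for UUO7 and for R4W against sham, and no ratio passed adjustment over the 8 tests made (adjusted p = 0.114 for these and 0.152 for Aqp2 over Aqp3 in UUO2).

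The spread among kidneys of 1 group was unequal among members. In sham the coefficient of variation was 1.57% for Aqp1, 10.3% for Aqp11 and 11.8% for Aqp7, against 39.0% for Avpr2, 63.9% for Aqp4 and 69.1% for Aqp2. The kidney with the most Aqp4 was also the one with the most Akr1b3, Slc14a2 and Upk3a in 5 of 6 groups (sham replicate 2, UUO7 replicate 4, R1W replicate 2, R2W replicate 1 and R4W replicate 1), and the same held for Avpr2. For Aqp2 it held in 4 of 6 groups, for Aqp3 in 3, for Aqp1 in 1 and for Aqp7 and Aqp11 in 0. Fxyd4 and Adipoq were compared in the same way. With Fxyd4 the count was 5 for Aqp2, 4 for Aqp4 and Avpr2, 2 for Aqp3, 1 for Aqp1 and 0 for Aqp7 and Aqp11. With Adipoq it was 4 for Aqp2, 3 for Aqp4 and Avpr2 and 0 for Aqp11. Its counts for Aqp3 (3), Aqp1 (2) and Aqp7 (1) include R1W, where Adipoq was listed at 0 in every kidney. R1W replicate 2, R2W replicate 1 and R4W replicates 1 and 3 held 325 to 382 FPKM of Akr1b3, against 69.0 to 171 in the other recovery kidneys. Akr1b3 and Slc14a2 themselves were not called in UUO7 against sham (log2 difference 0.53, limma adjusted p = 0.457, and 0.50, adjusted p = 0.394), but without sham replicate 2 Akr1b3 was called higher (1.36, adjusted p = 0.0223). Whether the share of medulla or renal pelvis in a kidney sample bears on these members was not tested.

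**Figure D4:**
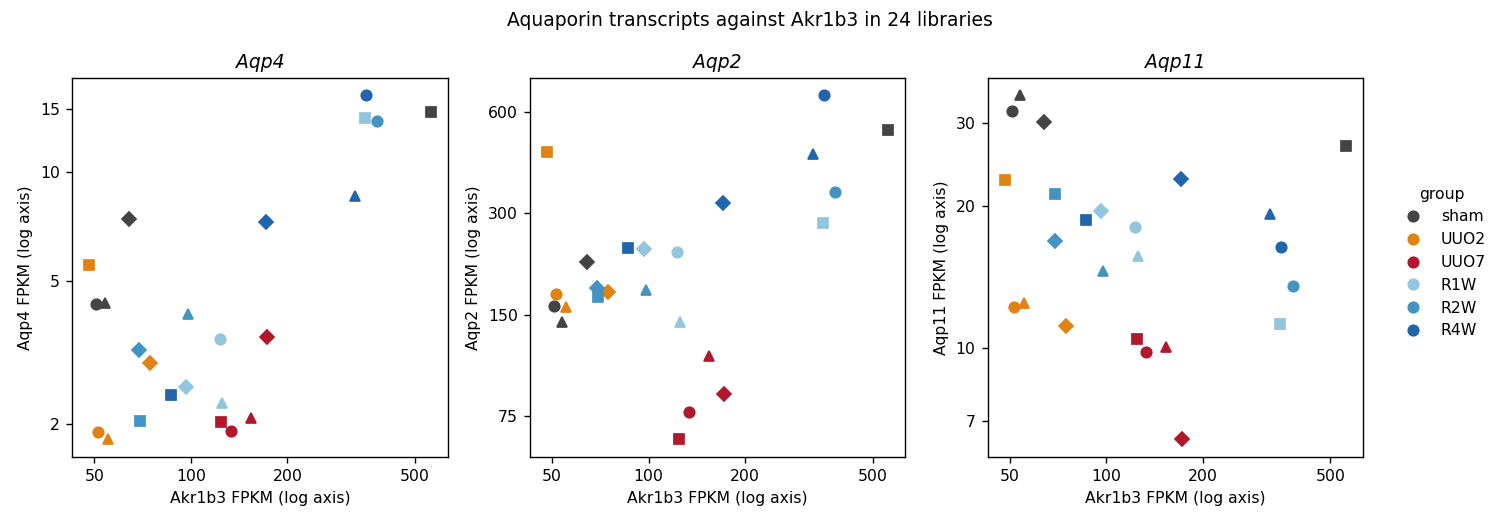
FPKM of Aqp4, Aqp2 and Aqp11 against that of Akr1b3 in the 24 libraries (log axes), coloured by group; symbols mark replicates 1 to 4 (circle, square, triangle, diamond). The 4 libraries with the most Aqp4, at 13.9 to 16.4 FPKM, hold 349 to 559 FPKM of Akr1b3, and the 4 UUO7 libraries have the least Aqp2 of the 24 at 124 to 172 FPKM of Akr1b3.

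The genes around these channels were taken from pathway lists. For comparison, in UUO7 against sham 60.1% of all genes were called higher and 17.8% lower (36.5% each way after rescaling), and in R4W against sham 54.8% and 11.6% (28.9% and 31.1% after rescaling). Of 8 other aquaporins and vasopressin receptors, 2 have a row: Aqp6, the intracellular channel of intercalated cells, at 19.5 ± 6.95 FPKM in sham and 14.2 ± 1.62 in UUO7 (log2 difference -0.38, limma adjusted p = 0.1), and Avpr1a, the V1a receptor, at 2.82 ± 0.439 and 3.74 ± 0.385 (0.32, adjusted p = 0.0749). After rescaling Aqp6 was called lower (-0.84, adjusted p = 0.00132) and the difference of Avpr1a was -0.06. As deposited, Aqp6 was called lower without sham replicate 1 (-0.53, adjusted p = 0.0324) or 3 (-0.51, adjusted p = 0.0433), and Avpr1a higher without sham replicate 2 (0.39, adjusted p = 0.0398). In R4W both were called higher than in sham, Aqp6 at 0.48 (adjusted p = 0.0494) and Avpr1a at 0.75 (adjusted p = 0.00038), and after rescaling Avpr1a alone.

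Of 10 genes of cAMP signalling from the receptor, 5 were called higher and 2 lower in UUO7 than in sham, against 60.1% and 17.8% of all genes, and after rescaling 2 were higher and 5 lower, against 36.5% each way. The adenylyl cyclase Adcy3 rose from 0.488 ± 0.192 to 2.53 ± 0.341 FPKM (SD, n = 4; log2 difference 1.25, limma adjusted p = 1.15e-08) and Creb1, a cAMP-responsive transcription factor, rose by 0.65 (adjusted p = 2.96e-06). The cyclase Adcy9 fell from 2.52 ± 0.390 to 0.898 ± 0.297 FPKM (-0.90, adjusted p = 8.81e-06) and the phosphodiesterase Pde4d fell too (-0.34, adjusted p = 0.00664). Adcy6, Gnas and Rab5a are named here after their values were seen. The cyclase Adcy6 is among the 5 called higher (0.29, adjusted p = 0.0321) and was not called without UUO7 replicate 3 or 4 or sham replicate 1, 3 or 4 (adjusted p of 0.0633 to 0.109). Rescaling turned its difference to -0.18 (adjusted p = 0.114), and turned that of Gnas, the stimulatory G protein subunit, from 0.22 (adjusted p = 0.00175) to -0.27 (adjusted p = 0.00108). Adcy3, Creb1, Adcy9 and Pde4d kept their directions after rescaling, at 1.02, 0.27, -1.20 and -0.71. In R4W 7 of the 10 were called higher and 0 lower, against 54.8% and 11.6% of all genes (4 and 4 after rescaling, against 28.9% and 31.1%), and Adcy3 was still 1.02 above sham.

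Of 14 genes of AQP2 vesicle traffic, 9 were called higher and 3 lower in UUO7, against 60.1% and 17.8% of all genes (3 and 6 after rescaling, against 36.5% each way). The largest rise was that of Stx4a, a syntaxin of the target membrane, from 50.7 ± 4.15 to 118 ± 7.78 FPKM (1.20, limma adjusted p = 2.15e-09), and Arhgdia rose by 0.82 (adjusted p = 2.1e-08). Rab5b, a small GTPase of early endosomes, and Myo5b, the motor of recycling vesicles, were called lower (log2 differences of -0.50, adjusted p = 5.6e-05, and -0.49, adjusted p = 4.27e-05). After rescaling these 4 differences were 0.72, 0.33, -0.97 and -0.97, and Rab5a, another early endosome GTPase, turned from called higher (0.21, adjusted p = 0.00728) to called lower (-0.26, adjusted p = 0.00211). Myo5b was still lower in R4W (-0.34, adjusted p = 0.00258), and Rab5b was not (0.03, adjusted p = 0.761), although it was called lower there after rescaling (-0.33).

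Of 8 genes of urea transport and osmolyte supply, 1 was called higher and 2 lower in UUO7, against 60.1% and 17.8% of all genes (1 and 3 after rescaling, against 36.5% each way). Nfat5, the transcription factor that answers hypertonicity, rose from 6.97 ± 0.988 to 13.9 ± 2.40 FPKM (0.90, limma adjusted p = 0.00148; 0.46 with adjusted p = 0.0477 after rescaling). Both lower calls were lost when single libraries were left out. Slc6a12, the betaine transporter, was at 1.04, 9.89, 0.89 and 1.44 FPKM in sham and 0.42 to 0.71 in UUO7; its difference of -1.04 (limma adjusted p = 0.0275) became -0.45 (adjusted p = 0.174) without sham replicate 2 and was also not called without UUO7 replicate 1 (adjusted p = 0.0546). Slc5a3, the inositol transporter, differed by -0.47 (adjusted p = 0.015; -0.91 after rescaling), and by -0.36 (adjusted p = 0.0664) without sham replicate 2 and -0.37 (adjusted p = 0.0641) without sham replicate 4. Others of the list, named after their values were seen, were not called with all libraries in the fit: Akr1b3 at 0.53, Slc14a2 at 0.50, the chaperone Hspa1b at 0.42 and the taurine transporter Slc6a6 at -0.19 (called lower after rescaling, at -0.67). Without sham replicate 2, 4 of the 8 were called higher and 0 lower, the additional 3 being Akr1b3 (1.36, adjusted p = 0.0223), Hspa1b (1.18, adjusted p = 0.0106) and the urea transporter Slc14a1 (0.95, adjusted p = 0.011).

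Of 8 transcription factors of the collecting duct 3 were called higher and 0 lower in UUO7, against 60.1% and 17.8% of all genes (2 and 3 after rescaling, against 36.5% each way). Elf3, an epithelial ETS factor, rose from 13.1 ± 5.68 to 74.7 ± 8.71 FPKM (2.50, limma adjusted p = 1.84e-08), and Grhl2, a regulator of epithelial barrier genes, by 0.84 (adjusted p = 0.000255; 0.47 after rescaling); in R4W 7 of the 8 were called higher than in sham, against 54.8% of all genes (5 higher and 1 lower after rescaling, against 28.9% and 31.1%).

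For the 5 members that differed from sham by at least 1 log2 unit in some group, the genes with the most similar course were found by the root mean square distance between their 5 group-mean log2 differences from sham. Aqp11 had the closest neighbours: Dcxr (distance 0.038), an enzyme of xylulose metabolism, Ivd (0.066), which breaks down leucine, and Aldh4a1 (0.079), of proline breakdown. Dcxr averaged 266 FPKM in sham, 85.7 after 7 days and 165 after 4 weeks of recovery. For Aqp1 they were Sgms2 (0.122), Tmem64 (0.129) and Acaa1b (0.132), and for Aqp3 Nat8f6 (0.154), Cdkl1 (0.196) and Ranbp3l (0.197). Aqp4 was nearest Vstm2a (0.135), Cpeb3 (0.14) and Slc26a4 (0.148), the last being pendrin of intercalated cells at 24.6 FPKM in sham and 8.83 in UUO7. Aqp2 had no near neighbour, the closest being Tldc2 at 0.369, Nos1ap at 0.38 and Ciart at 0.383. Between members the closest pair was Aqp1 and Aqp4 (0.222) and the farthest Aqp11 and Avpr2 (1.043). The limma SE of a difference from sham was 0.53 for Aqp4, 0.40 for Aqp2 and 0.20 for Aqp11. Distances smaller than a member's SE lie within the error of its differences, and their order is not resolved. A distance says nothing of shared control.

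In the authors' deposited table of comparisons, the UUO7 difference from sham was -1.95 for Aqp1, -2.08 for Aqp2, -2.62 for Aqp3, -2.17 for Aqp4, -0.97 for Aqp7, -2.34 for Aqp11 and -1.02 for Avpr2 on the log2 scale. These lie nearer to the rescaled values here (-1.93, -1.91, -2.54, -1.62, -0.95, -2.12 and -0.94 in the same order) than to the values as deposited. Over the 63 calls of the 7 members in 9 comparisons, the authors' deposited table and the fit to the deposited values differed in 8, all called by the authors alone. Of these, 3 were also called here after rescaling (Aqp3 in R1W and in R2W against sham, and Avpr2 in UUO7 against UUO2). The other 5 were called here neither way. The authors' deposited table gave them as Aqp4 in UUO2 against sham (-1.41, adjusted p = 0.0236), Aqp1 and Avpr2 in R1W against UUO7 (0.58, adjusted p = 0.0257, and 0.51, adjusted p = 0.0477), Aqp1 in R4W against sham (-0.48, adjusted p = 0.000112) and Aqp2 in R4W against R1W (0.99, adjusted p = 0.00875). Avpr2 in R1W against sham was called here after rescaling (-0.51, limma adjusted p = 0.0345) and not in the authors' deposited table (adjusted p = 0.0756).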

How the data were processed

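RNA of 24 mouse kidneys, 4 in each of 6 groups, was sequenced after polyA selection on an Illumina HiSeq, per the labels' protocols. The submitters' processing notes name FastQC, RSEM, Bowtie2, DESeq2 and the build mm10, with no versions or roles. The authors deposited 1 value per gene and library for 14785 genes, without genes of low level, and the unit is not stated; the deposited values sum to 717415 to 830179 a library and step by whole fragments at each gene's effective length, as FPKM does. They also deposited log2 fold changes and adjusted p-values of 15 comparisons, which were read for the members only.

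Differences were fitted with limma 3.58.1 (R 4.3.3), with a mean-variance trend in its moderated variances, on log2(FPKM + 1) of all genes and libraries, with 1 coefficient per group and Benjamini-Hochberg adjustment over 14785 genes; a fold on this scale understates the change of low genes. Data were simulated from each gene's mean over the 24 libraries and its spread within groups. In these, 192 of 200 genes changed by 2 log2 units in UUO7 were recovered against sham, with 11 false calls. The simulated data held no shift shared by a whole group and no library set apart from its group. Values relative to segment markers were tested with exact permutation (scipy 1.17.1). The members and lists were chosen with earlier results of these data known. By rule, the pathway genes named are, per list, up to 2 largest rises and up to 2 largest falls among those called in UUO7 against sham. Aqp6 and Avpr1a are named as the only genes of their list with a row, and others after their values were seen. Likeness was computed for members past 1 log2 unit. Alternatives were rescaling, pseudocounts of 0.1 and 10, a mean of at least 10 FPKM, fewer groups, a replicate block, a fold minimum, the other label of R4W replicate 2, and leaving out each library. Gene positions are those of the deposited table; 14767 gene identifiers were found in the GENCODE M21 annotation, 92.6% with the same coordinates. Animals are separate. The limma p-values set a difference between groups against a spread among animals that is pooled over all 6 groups. The exact permutation p-values use only the animals of the groups compared.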

Additional observations from a re-analysis of the deposited data

Results flagged for a closer look

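Within a group of 4, a value counted as apart when its gap to the nearest other, divided by the range of the group, passed Dixon's critical value for 4 samples. Of 84 groups of values checked, 11 passed, where chance gives about 4.2 (1 in 20). In UUO2 the highest kidney was replicate 2 each time, with 364 FPKM of Aqp1, 455 of Aqp2, 75.98 of Aqp3 and 22.8 of Aqp11. In R2W, replicate 1 was the highest with 348 FPKM of Aqp2 and 13.85 of Aqp4. R1W replicate 2 was the highest for Aqp4, at 14.2 FPKM and at -1.69 relative to the principal cell markers. In UUO7, replicate 4 had the most Aqp4, 3.48 FPKM, and the least Aqp11, 6.40 FPKM. Relative to the principal cell markers, Avpr2 was highest in sham replicate 2, at -0.85. The causes were not tested.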

How the results depend on the processing

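The UUO7 falls of Aqp1, Aqp2, Aqp3, Aqp7 and Aqp11 kept their call under every alternative without a fold minimum in which they were tested (Aqp7 averages under 10 FPKM); those of Aqp4 and Avpr2 did not (adjusted p = 0.0512 and 0.0571 without the UUO2 group, 0.0741 and 0.0619 with a pseudocount of 10). Members called in R1W against sham numbered 5 after rescaling, in place of 3. With a fold minimum of 1 log2 unit, 0 were called in R1W, R2W or R4W against sham or in R4W against R1W, and 1 in UUO7 against UUO2. In R4W against sham, 1 of 5 was called where genes had to average 10 FPKM or more, 4 (2 of them higher) with R4W replicate 2 placed in R2W, and 5 (3 higher) without sham replicate 2 and UUO2 replicate 2, a pair chosen after seeing the data. The higher calls are on values as deposited, where 54.8% of all genes were called higher there with all libraries. Without that pair, 3 were called in UUO7 against UUO2. With only the compared groups in the fit, 0 were called in R4W against R1W. With 1 library left out at a time, members called ranged from 3 to 3 in UUO2, 5 to 7 in UUO7, 3 to 4 in R1W, 2 to 3 in R2W and 2 to 4 in R4W against sham, 3 to 5 in UUO7 against UUO2, 1 to 4 and 5 to 6 in R1W and R4W against UUO7, and 0 to 3 in R4W against R1W.

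Among the members, signs turned only for differences that were not called. After rescaling these were -0.033 (Avpr2, R2W against sham), -0.036 (Aqp3) and -0.24 (Aqp4, both R4W against sham) and 0.054 (Aqp7, R4W against R1W). Without the pair of libraries they were 0.341 (Aqp2) and 0.122 (Avpr2) in R1W against sham, 0.295 (Aqp2) in R2W against sham and 0.062 (Aqp4) in UUO7 against UUO2. With 1 library left out, Aqp2 ranged from -0.422 to 0.343 in UUO2, -0.286 to 0.341 in R1W and -0.358 to 0.295 in R2W, Avpr2 from -0.274 to 0.059 in UUO2 and -0.271 to 0.122 in R1W, and Aqp4 from -0.273 to 0.512 in R4W, all against sham; Aqp4 ranged from -0.343 to 0.062 in UUO7 against UUO2, and Aqp7 from -0.121 to 0.061 in R4W against R1W.

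Of the 28 tests relative to segment markers, 0 passed adjustment with a pseudocount of 0.1, where fewer than the needed 17 reached the smallest p. The count was also 0 with R4W replicate 2 in R2W, without the pair of libraries or without any 1 library of the groups compared (0 to 0). These settings leave 3 animals in a group, and no test of such a group can reach the smallest p that 4 against 4 allows. Fewer than the needed 17 then reach it, so these settings do not test the differences. For the other changes the cause was not tested. Differences that turned were Aqp2 in R4W against sham (0.215 with a pseudocount of 10, 0.13 with R4W replicate 2 in R2W, 0.138 with the list's median, 0.191 without the pair, -0.225 to 0.191 with 1 library left out), Avpr2 in R1W against UUO7 (-0.053 with a pseudocount of 10, -0.011 to 0.107), and Aqp11 in UUO2 against sham (-0.014 without the pair, -0.017 to 0.145) and in R1W against UUO7 (-0.17 to 0.052).

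Replicate numbers name different animals, and in no comparison did all same-numbered pairs deviate together (mean correlation -0.174 to 0.148). A replicate block ended the calls of Aqp4 and Avpr2 in UUO7 against sham (adjusted p = 0.0509 and 0.0538) and of Aqp4 in R4W against UUO7 (0.0597) and called Aqp3 in R1W against sham (0.0422); with the block, 0 of the 28 exact tests passed, as 4 pairs allow no p under 0.125. Of the pathway genes in UUO7 against sham, refitted without each library in turn (chosen after seeing the data), only Tfcp2l1 turned sign (-0.053 to 0.052, 0.041 and 0.005 without UUO7 replicates 1 and 2, 0.023 without sham replicate 3) and it was called in none of these fits. Rescaling turned 6 pathway genes called higher in UUO7 (Gnas, Adcy6, Prkacb, Rab5a, Dctn1 and Akap7), 2 of which, Gnas and Rab5a, were then called lower. The 20 libraries outside UUO2 give 24.9 to 35.3 fragments per FPKM and kilobase; the depth behind most UUO2 values is unknown.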
